A study of Mus musculus with 4 samples.

Results

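The cells that the authors named MMP_LMPP, read here as multipotent and lymphoid-primed progenitors, were 1 of 21 cell types found among cells sorted as group 2 innate lymphoid cells (ILC2s) from mouse liver and lung. Their members in this report are the genes that the authors' marker table lists for this type, taken by the type's name in the table. There were 403 such genes, out of 1679 genes with 4422 entries over all types. A gene is called listed for a type when the table holds an entry for it, which means that its average value was higher in the cells of that type than in all other cells. The source was wild type BALB/c mice, 8 weeks old, given PBS or 0.5 µg of rIL-33 by intraperitoneal injection on each of 5 days, and liver and lung of each treatment made 4 groups (PBS lung, PBS liver, rIL-33 lung, rIL-33 liver). Each group was 1 single-cell library (10x Genomics, 3' end), made from the pooled tissue of several mice, so that differences between animals cannot be seen. All cells, in every group, had passed the same sort for ILC2s (negative for CD3e, Ly6G, Ly6c, CD11b, CD45R, TER119 and TCRb; positive for CD127, Thy1 and ST2). The table pools the 4 libraries, so neither the response to rIL-33 nor the organ of these cells could be examined.

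Multipotent progenitors are blood-forming cells that have left the stem cell state and can still give rise to many lineages. Lymphoid-primed progenitors are a later stage that has begun to switch on lymphoid genes and can still form myeloid cells. These cells are best known from bone marrow and fetal liver, and they carry the receptor tyrosine kinase KIT, the surface protein CD34 and transcription factors shared with blood stem cells. Commitment to the B lineage follows when EBF1 and then PAX5 are switched on and the surrogate light chain (VPREB1 and its partner) is made.

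For each listed gene the table gives a share, the percentage of cells whose value was above 0, once inside the type and once in all other cells. This share is not a detection rate of transcripts, and "found in" a percentage of cells means here only a value above 0. *Sox4* had a value above 0 in 50% of the cells outside MMP_LMPP, whereas in the authors' second table, on ILC2s alone, it was found in 2.5% of the cells. Over the 116 genes listed for ILC2 that the second table also holds, the median share of ILC2s was 75.2% by the cell type table but 43.3% by the second, and 112 genes had the higher share in the cell type table. Smoothing or integration of the values behind the first table was not tested. Shares are therefore compared here only within 1 table at a time, between cells inside and outside a type or subcluster and between types. The tables hold no replicate, no value per library and no number of cells, and no SD, interval or test is given for a share. The types were also clustered on these genes, so a higher share inside MMP_LMPP describes how the type was drawn.

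MMP_LMPP was the smallest of the 21 types. Solving the sizes of all types together from the shares of cells gave 0.387% of the sorted cells (least-squares SE 0.0063 percentage points, 3788 entries of 1045 genes). The next smallest types, the authors' Plasma cell and ILC1_ILC3, held 0.542% (SE 0.0089) and 0.592% (SE 0.0100). These errors cover rounding and the fit, not variation between animals.

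The share was above that of the other cells for 399 of the 403 genes and below it for 4. The median share was 89.4% inside MMP_LMPP against 53.2% outside, and the median difference was 29.8 percentage points, compared with 18.4 points over all entries of the table. In 41 genes the difference was at least 50 points. At the other end, 40 genes differed by under 10 points, and 21 genes already had a value in over 90% of the other cells. Among these near-ubiquitous genes was *Ptma*, which encodes the chromatin-associated protein prothymosin alpha, at 100% inside and 99.4% outside. The 4 genes with a lower share were *Msrb3* (26.8% against 45.7%), *Ccnd1*, which encodes cyclin D1 (30.9% against 38.7%), *Ms4a6c* (40.7% against 48.2%) and *Clec12a* (30.9% against 33.4%). For these genes the higher average came with fewer cells above 0.

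**Figure D1:**
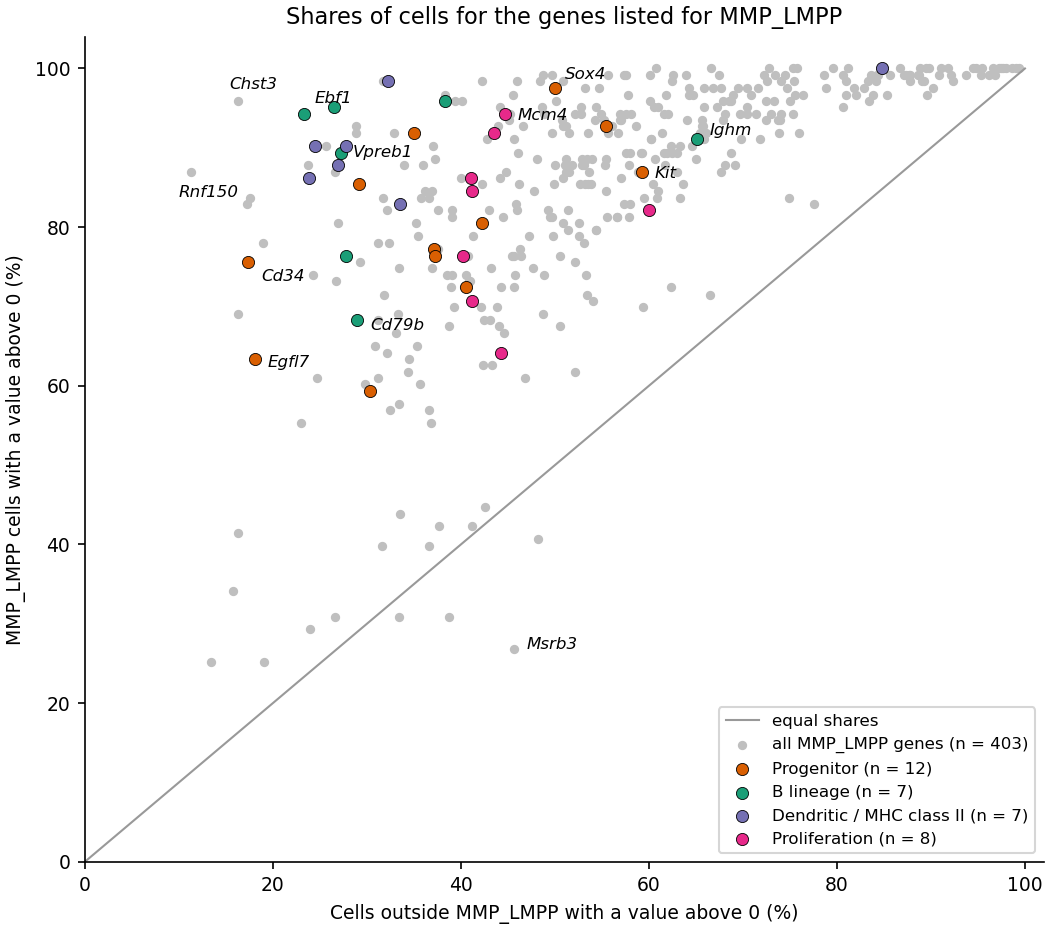
Each point is 1 of the 403 genes listed for MMP_LMPP, with the percentage of all other cells with a value above 0 on the x axis and the percentage of MMP_LMPP cells on the y axis; colours mark genes of 4 lists and the line marks equal shares. All points but 4 lie above the line, and *Ebf1* (94.3% against 23.3%) lies far to the upper left while *Kit* (87.0% against 59.3%) lies nearer to the line.

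The name of the type was set beside a list of 30 progenitor genes that included *Sox4*. The authors named the types by hand from these same markers, so the count describes the name and is no independent support for it. Of these, 18 were listed for at least 1 type and 12 of the 18 for MMP_LMPP (66.7%), beside 24.0% of all 1679 genes. *Sox4*, a transcription factor of immature lymphoid and other progenitor cells (GRCm38 chromosome 13, 28948919 to 28953713, minus strand), was found in 97.6% of MMP_LMPP cells against 50% of the others. The one other type that listed *Sox4* was Macrophage, with 68.3% of its cells. *Cd34* (chromosome 1, 194938819 to 194961279, plus strand) was found in 75.6% of MMP_LMPP cells against 17.4%. *Kit* (chromosome 5, 75574916 to 75656722, plus strand) was found in 87.0% against 59.3%. *Kit* separated the type least among the 12 genes, because its share outside was already high.

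Transcription factors made up most of the other progenitor genes. *Bcl11a*, which lymphoid progenitors need to enter the B lineage, stood at 91.9% inside against 35.0% outside. *Spi1*, which encodes the myeloid and lymphoid factor PU.1, stood at 85.4% against 29.2%. The stem cell factors *Meis1* (80.5% against 42.3%) and *Lmo2* (76.4% against 37.2%) and the progenitor factor *Myb* (72.4% against 40.6%) followed. Outside this class, the cell cycle kinase gene *Cdk6* was found in 92.7% against 55.4% and *Angpt1*, which encodes the ligand angiopoietin-1, in 77.2% against 37.1%. In 9 of the 12 genes another type that listed the gene had a higher share, and in *Sox4*, *Bcl11a* and *Cdk6* none had.

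Several progenitor genes are shared with vessel walls. Endothelium cell listed 8 of the 18 progenitor genes on the table, beside 23.6% of all genes. For *Cd34* the share in Endothelium cell was 90%, for *Egfl7* 96.0% against 63.4% in MMP_LMPP, and for *Adgrl4* 86.9% against 59.3%. Of 9 endothelial marker genes on the table, MMP_LMPP listed 2 (22.2%, close to the 24.0% of all genes), *Egfl7* and *Calcrl*. Endothelium cell listed 8 of the 9 (beside 23.6% of all genes). Progenitor genes that the table holds for other types but not for MMP_LMPP were *Ly6a*, which encodes Sca-1 (92.0% of Endothelium cell), *Hlf*, *Gata2*, *Cebpa*, *Cd48* and *Satb1*. The other 12 genes of the list, among them *Flt3*, *Dntt*, *Mpo*, *Il7r*, *Rag1* and *Rag2*, were on no list of the table, so their levels in these cells are not known from it.

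The genes that set the type apart most were not from the progenitor list. Ranked by the difference between the shares inside and outside, *Cd34* was the highest progenitor gene, at rank 22, and *Sox4* was at rank 56. Genes of the B lineage stood at ranks 3, 4, 16 and 23. *Ebf1*, the transcription factor that specifies B cells (chromosome 11, 44617317 to 45008091, plus strand), was found in 94.3% of MMP_LMPP cells against 23.3% of the others, and Plasma cell had more, 99.4%. *Fcrla*, an intracellular Fc receptor-like protein of B cells, was found in 95.1% against 26.5%, with 82.4% in Plasma cell and 62.0% in Macrophage. *Vpreb1*, a part of the surrogate light chain of the pre-B cell receptor (chromosome 16, 16868403 to 16870843, minus strand), was found in 89.4% against 27.2%, and no other type listed it. *Vpreb3*, whose product associates with the pre-B cell receptor, was found in 95.9% against 38.3%. The name MMP_LMPP is kept here as the authors' name, with these values beside it.

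Of 17 B lineage genes on the table, MMP_LMPP listed 7 (41.2%, beside 24.0% of all genes) and Plasma cell listed 16 (beside 12.2%). *Cd79a* and *Cd79b*, which encode the signalling chains of the B cell receptor, were found in 76.4% and 68.3% of MMP_LMPP cells, below the 100% and 98.8% of Plasma cell. *Ighm*, the heavy chain constant gene of IgM, was found in 91.1% of MMP_LMPP cells, in 98.8% of Plasma cell and in 65.1% of the cells outside MMP_LMPP. *Vpreb3* ran the other way, with 57.1% of Plasma cell. The factor gene *Pax5* (80% of Plasma cell), *Ms4a1*, which encodes CD20 (93.5%), *Ighd* (98.2%) and *Igkc* (100%) were listed for Plasma cell and not for MMP_LMPP. A missing entry means that the gene did not pass the authors' thresholds for being higher there, not that it was absent. The sort removed cells with CD45R (B220) on the surface, and the share of cells that escaped the sort was not tested.

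**Figure D2:**
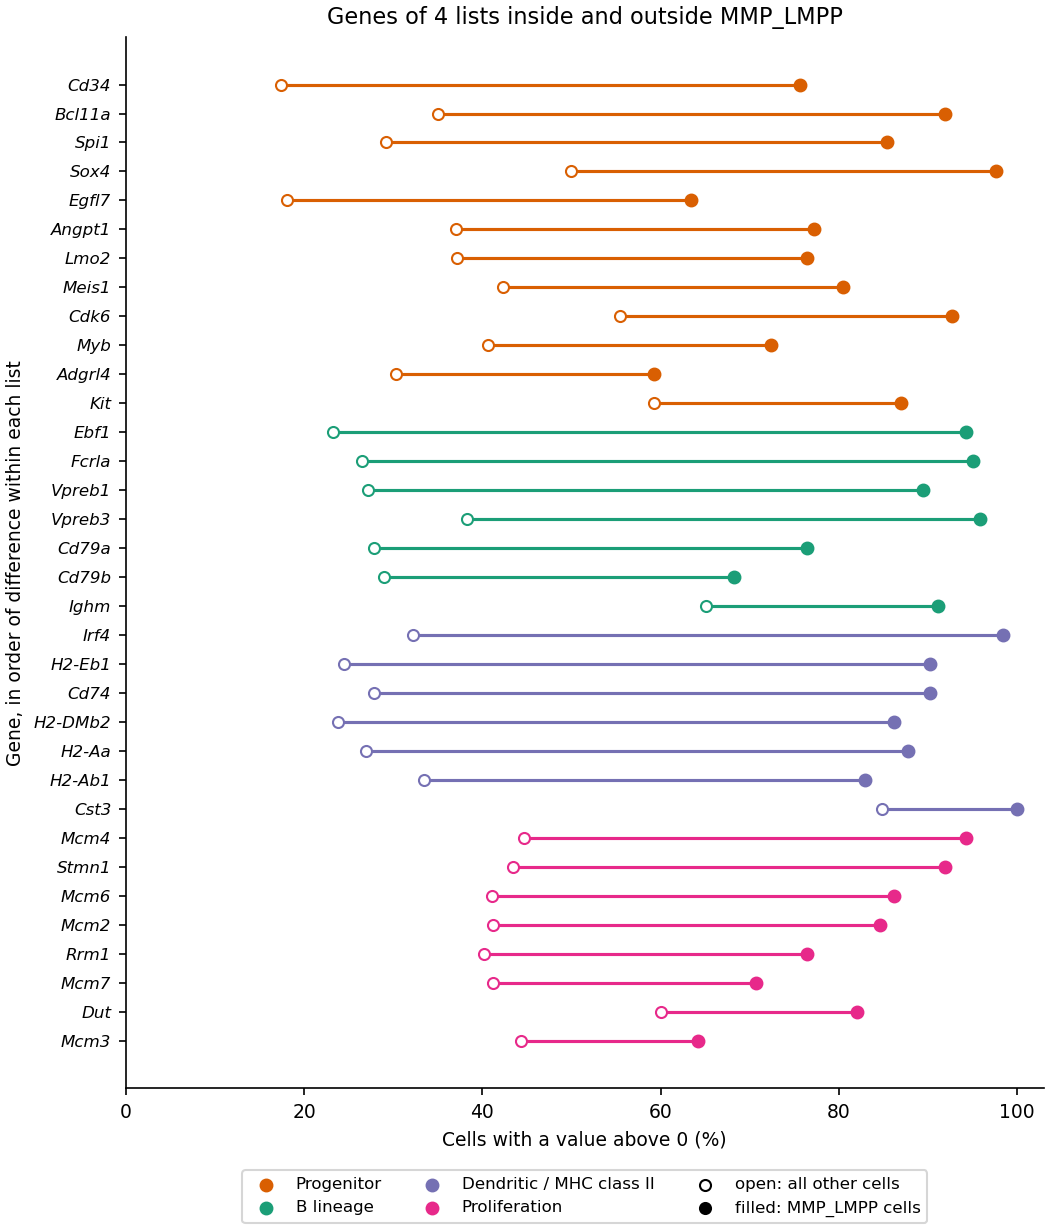
Each row is a gene of 1 of 4 lists that was listed for MMP_LMPP; the filled circle is the percentage of MMP_LMPP cells with a value above 0 and the open circle the percentage of all other cells. The widest gaps among these genes are those of *Ebf1* (71.0 points) and *Fcrla* (68.6 points), and the narrowest is that of *Cst3* (15.2 points).

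Genes of antigen presentation formed a second leading group. Of 12 dendritic cell and MHC class II genes on the table, 7 were listed for MMP_LMPP (58.3%, beside 24.0% of all genes), with a median of 90.2% inside and 27.8% outside. The class II chains *H2-Eb1* (90.2% against 24.5%), *H2-Aa* (87.8% against 26.9%) and *H2-Ab1* (82.9% against 33.5%) were among them. So were *Cd74*, the invariant chain that escorts class II molecules (90.2% against 27.8%), and *H2-DMb2*, a subunit of the peptide loading factor (86.2% against 23.8%). Plasma cell had 100% for the 3 class II chains, above MMP_LMPP in each. In Macrophage the values lay close to MMP_LMPP, at 85.1% for *H2-Eb1*, 88.2% for *H2-Aa*, 88.3% for *H2-Ab1* and 90.2% for *Cd74*. *Ciita*, the master regulator of class II genes, was listed for Plasma cell (58.8%) and Macrophage (57.3%) and not for MMP_LMPP.

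*Irf4*, a transcription factor of lymphoid and dendritic cell maturation counted in this list, went a different way from the class II genes. It was found in 98.4% of MMP_LMPP cells against 32.2% of the others. Plasma cell and Treg, which also listed *Irf4*, had 16.5% and 36.4%. The cells named Plasma cell thus showed *Irf4*, a gene of mature plasma cells, in a smaller share than the other cells (32.5%).

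**Figure D3:**
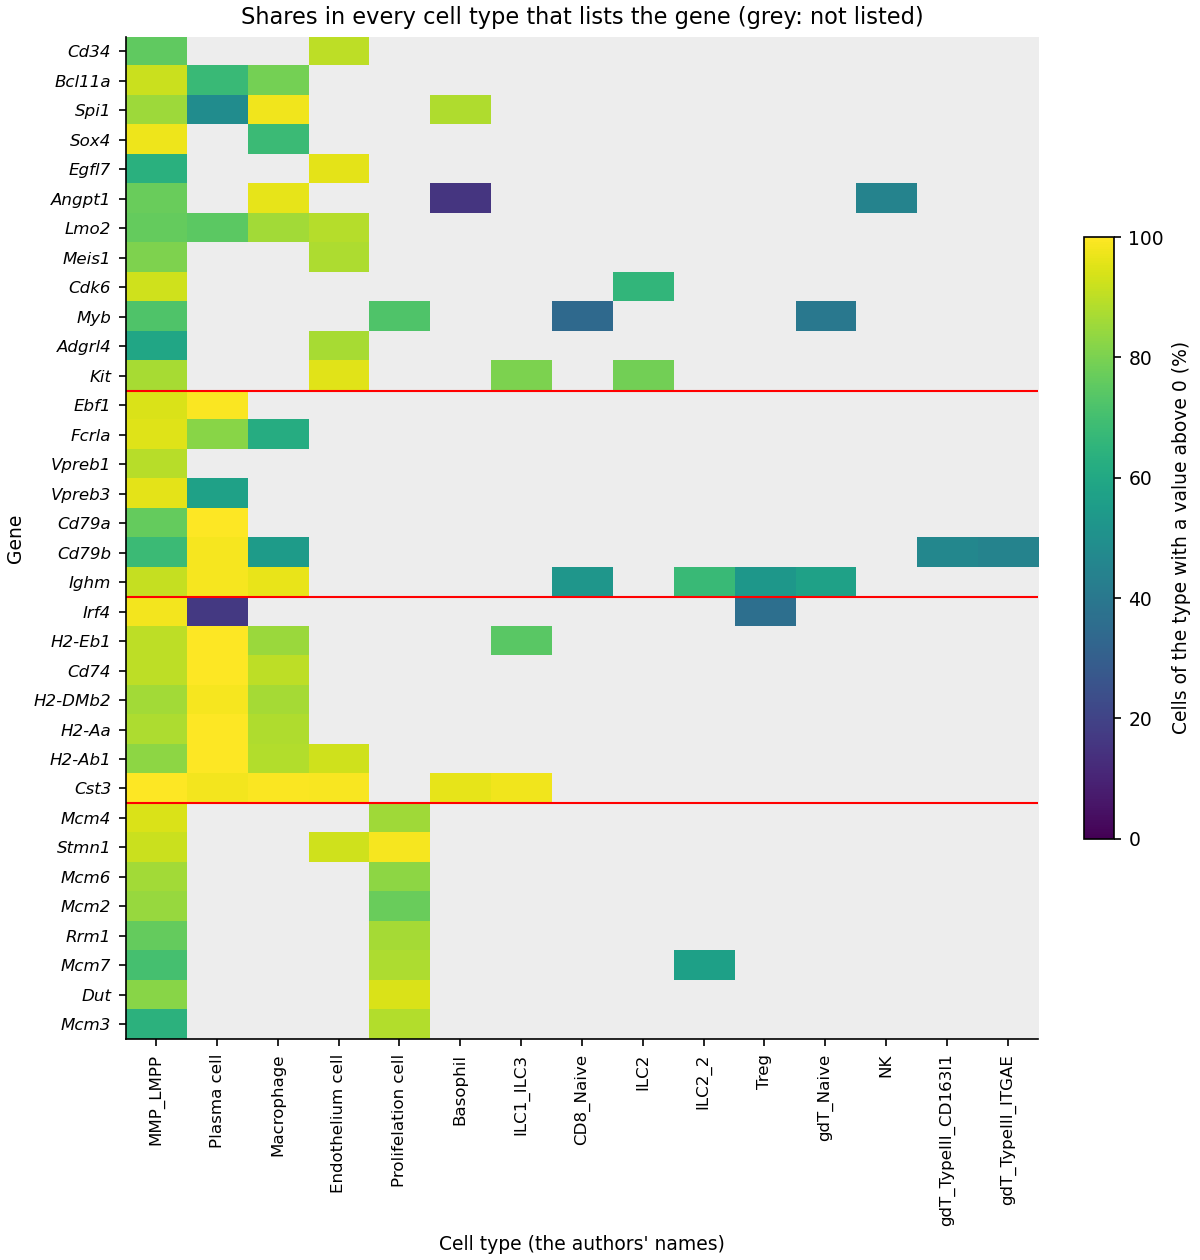
Rows are the genes of the progenitor, B lineage, dendritic cell and MHC class II, and proliferation lists that MMP_LMPP lists, columns are the cell types that list any of them, and colour gives the percentage of cells of the type with a value above 0; grey means that the type does not list the gene. *Vpreb1* is coloured in the MMP_LMPP column alone, and *Irf4* has its lowest value in Plasma cell (16.5%).

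The promoters of *Sox4*, which marks the type, of *Vpreb3*, an early B lineage gene, and of the class II genes *H2-Aa* and *H2-Eb1* are shown because each holds 1 of 2 motifs that were searched, and they were chosen after the search. Each line gives the 150 bases before the RefSeq start of transcription, 5′ to 3′ on the gene's own strand, in GRCm38.p6. Capitals mark the motifs, the Y box CTGATTGG, known from MHC class II promoters, and the octamer ATTTGCAT, known from immunoglobulin promoters.
Sox4 (chr13:28953700-28953849, minus strand): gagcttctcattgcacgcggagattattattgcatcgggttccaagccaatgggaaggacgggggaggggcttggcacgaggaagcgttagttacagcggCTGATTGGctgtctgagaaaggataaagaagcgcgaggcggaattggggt
Vpreb3 (chr10:75948150-75948299, plus strand): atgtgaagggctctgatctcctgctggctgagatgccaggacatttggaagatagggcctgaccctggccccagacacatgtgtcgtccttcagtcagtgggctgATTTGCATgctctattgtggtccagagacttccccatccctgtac
H2-Aa (chr17:34287824-34287973, minus strand): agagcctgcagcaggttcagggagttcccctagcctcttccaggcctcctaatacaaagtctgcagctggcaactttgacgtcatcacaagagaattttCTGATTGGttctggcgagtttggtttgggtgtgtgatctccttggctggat
H2-Eb1 (chr17:34305717-34305866, plus strand): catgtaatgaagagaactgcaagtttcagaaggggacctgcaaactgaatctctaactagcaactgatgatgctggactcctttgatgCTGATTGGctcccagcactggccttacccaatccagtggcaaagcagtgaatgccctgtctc

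The Y box lay 50 to 43 bases before the start in *Sox4*, 51 to 44 in *H2-Aa* and 62 to 55 in *H2-Eb1*, and the octamer lay 45 to 38 bases before the start in *Vpreb3*. RefSeq promoters matched 315 of the 403 genes by symbol. Searched on both strands, the Y box was in the same window of 23 of these 315 genes (7.30%) and of 999 of 27025 genes in all (3.70%). The octamer was in 3 of the 315 (0.952%) and in 1.17% of all genes. Neither motif was in the windows of *H2-DMb2*, *Irf4*, *Cst3*, *Ebf1*, *Fcrla*, *Vpreb1* or *Cd79a*, which were also searched. The letters of the motifs do not overlap each other, and a match describes the sequence and not a bound site.

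Some genes of DNA replication were listed for MMP_LMPP. Of 32 proliferation genes on the table, MMP_LMPP listed 8 (25%), close to the 24.0% of all genes. The type spelled Prolifelation cell by the authors listed all 32 (beside 30.6% of all genes). The helicase subunits *Mcm4* (94.3% against 44.7%), *Mcm6* (86.2% against 41.1%) and *Mcm2* (84.6% against 41.2%) had larger shares in MMP_LMPP than in Prolifelation cell, where they were 85.9%, 83.1% and 77.2%. *Mcm7* (70.7%) and *Mcm3* (64.2%) had smaller ones, beside 87.5% and 88.4%. The nucleotide synthesis genes *Rrm1* and *Dut* and the tubulin regulator *Stmn1* were the other 3. *E2f1*, a transcription factor that switches on replication genes, was at rank 11, in 87.8% of MMP_LMPP cells against 23.7% of the others and 72.3% of Prolifelation cell. *Mki67* and *Top2a*, found in 94.0% and 91.3% of Prolifelation cell, were not listed for MMP_LMPP, and neither were *Pcna*, *Cdk1*, *Ccnb1* or *Birc5*.

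Markers of the other cells that the sort could hold were also counted. The counts for MMP_LMPP stand beside the 24.0% of all genes that it listed. MMP_LMPP listed 0 of 15 ILC2 genes on the table, among them *Gata3*, *Il1rl1*, *Il13* and *Il5*. ILC2 itself listed 13 of the 15 (beside 8.10% of all genes). MMP_LMPP listed 0 of 14 T cell genes, 0 of 15 NK cell and ILC1 genes and 0 of 11 basophil and mast cell genes. It also listed 0 of 12 genes of ILC precursors and early lymphoid factors, among them *Zbtb16*, *Tcf7*, *Id2* and *Tox*. Each of them had an entry for some other type, which does not show whether it was compared for MMP_LMPP. *Il1rl1* encodes ST2, the receptor of IL-33 used to sort the cells. Of the other positive sort markers, *Thy1* was not listed for MMP_LMPP but for other types, and *Il7r*, which encodes CD127, was on no list. *Kit* was the single entry among 10 genes of ILC3s and lymphoid tissue inducer cells and *Car2* the single entry of 2 erythroid and megakaryocyte genes. Of 19 genes of chemokine receptors and adhesion, 2 were listed (10.5%, beside 24.0% of all genes). The neutrophil list and the hepatocyte and lung epithelium list each had 1 gene on the table, and MMP_LMPP listed neither.

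Myeloid and plasmacytoid dendritic cell genes were listed in part. Of 11 genes of plasmacytoid dendritic cells on the table, 6 were listed for MMP_LMPP (54.5%, beside 24.0% of all genes) and all 11 for Macrophage (beside 17.3%). They were led by *Plac8* (96.7% against 38.3%) and *Tcf4*, an E protein that maintains that lineage (88.6% against 51.2%, with 96.9% in Macrophage). *Atp1b1* (94.3% against 69.7%), *Runx2* (75.6% against 52.1%), *Ccr9* (70.7% against 54.1%) and *Ly6d* (29.3% against 24.0%) were the others. *Irf8*, *Bst2*, *Spib* and *Cox6a2* were listed for Macrophage and not for MMP_LMPP. Of 9 macrophage and monocyte genes, 4 were listed (44.4%, beside the same 24.0%), namely *Ctss*, *Itgam*, *Tyrobp* and *Ly86*. *Itgam*, which encodes CD11b, a marker of cells that the sort removed, was found in 74.0% of MMP_LMPP cells against 45.8%. *Lyz2* and *Cd68* were not listed. *Ly86*, a cofactor of an innate receptor, was found in 30.9% of MMP_LMPP cells and in 96.9% of Macrophage.

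**Figure D4:**
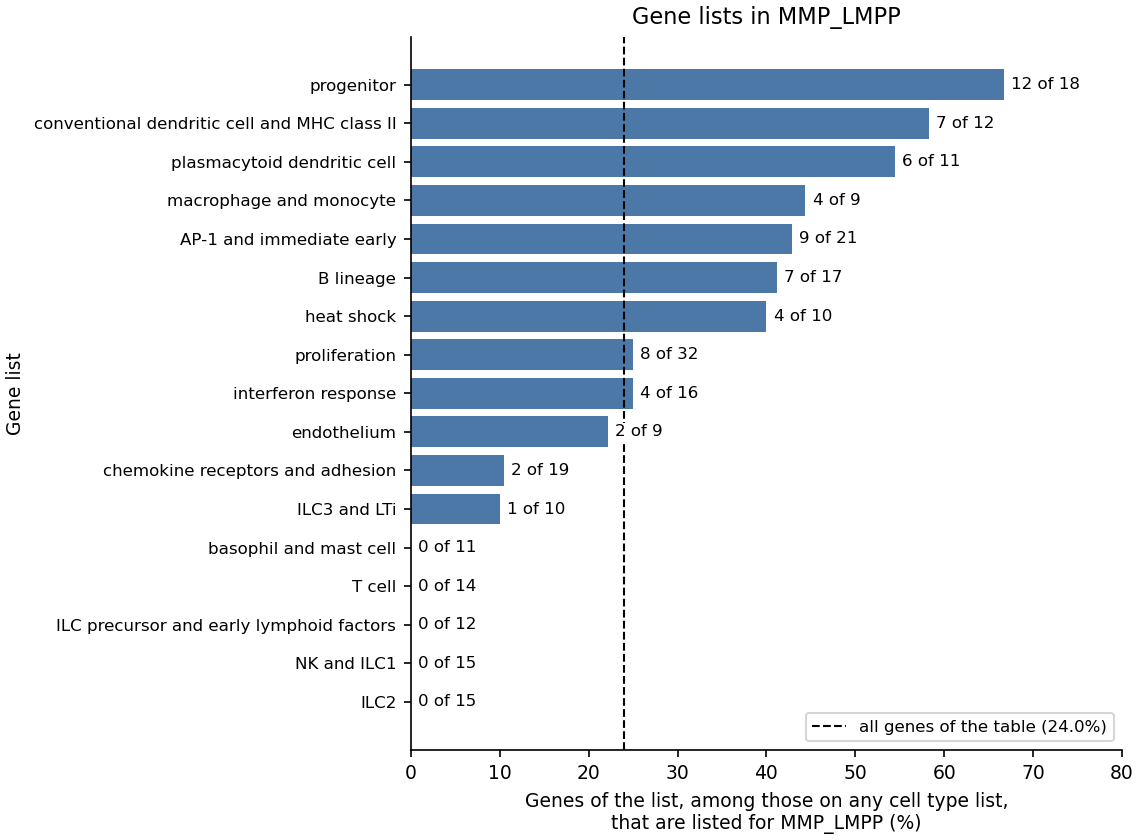
Bars give, for each gene list with at least 5 genes on the cell type table, the percentage of those genes that MMP_LMPP lists, with the numbers beside the bar; the dashed line is the 24.0% of all genes on the table. The progenitor list stands highest, at 12 of 18, and the ILC2, T cell, NK cell and ILC1, basophil and ILC precursor lists stand at 0.

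Immediate early genes, which respond within minutes to stimulation or to cell isolation, made up 9 entries of 21 on the table (42.9%, beside 24.0% of all genes). *Egr3* (99.2% against 49.7%) and *Egr1* (95.1% against 60.5%) differed most, and *Nr4a1* (99.2% against 72.2%) and *Fosl2* (99.2% against 73.4%) followed. *Fos*, *Fosb*, *Ier2* and *Klf6* were listed for other types only. Of 16 interferon response genes 4 were listed (25%, close to the 24.0% of all genes), namely *Ifitm2* (88.6% against 37.3%), *Ifitm3* (74.0% against 24.3%), *Isg15* and *Ly6e*. The heat shock genes *Hspd1*, *Hspe1*, *Hsp90aa1* and *Hsp90ab1* were 4 of 10 (40.0%, beside the same 24.0%), with a median difference of 9.7 points.

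Other genes among the 25 with the widest gap belonged to none of the lists. *Chst3*, a sulfotransferase of chondroitin chains, came first, with 95.9% of MMP_LMPP cells against 16.3% of the others, and 64.7% in Plasma cell. *Rnf150*, a RING finger protein gene, came second, with 87.0% against 11.3%, and had no other listing. *Cd24a*, a surface protein of developing B cells and other immature cells, was found in 98.4% against 31.7%, and Macrophage and Plasma cell had 90.6% and 65.9%. *Deptor*, which encodes an inhibitor of mTOR, was found in 90.2% against 25.7%. *Mzb1*, an endoplasmic reticulum chaperone of B lineage cells, was found in 78% against 19.0%, below the 91.8% of Plasma cell. *Pde10a*, *Ndrg1*, *Napsa* and *Dok3* had differences of 56.5, 63.0, 63.8 and 60.4 points.

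For 44 genes (10.9% of the 403) MMP_LMPP was the one type with an entry. This 10.9% ranked 6 among the 21 types. When every entry of the table had to lie at least 10 points above the other cells, there were 66 such genes among 363. Beside *Rnf150* and *Vpreb1*, the widest gaps among the 44 were those of *Cc2d2a*, a gene of the ciliary base (83.7% against 17.6%), *Il1r2*, the decoy receptor of IL-1 (82.9% against 17.3%), and *Sdc2*, which encodes the proteoglycan syndecan-2 (91.9% against 32.9%). Among the others were the tRNA ligase genes *Rars* (94.3% against 45.2%) and *Lars* (88.6% against 54.0%), *Ctps*, which makes CTP (90.2% against 37.0%), and *Shmt1* of one-carbon metabolism (83.7% against 31.7%). *Hmga2*, a chromatin protein of fetal blood stem cells, was also listed for this type alone, but in 42.3% of its cells against 41.2% of the others.

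The remaining genes were on other lists too, 128 on 1 other list, 149 on 2 or 3 and 82 on at least 4. MMP_LMPP had the highest share of all listing types in 203 of the 403 genes (50.4%), which placed it at rank 5 of the 21 types by this percentage. Prolifelation cell, the first, had 82.3%. Of the 203 genes, 44 were listed for MMP_LMPP alone and so are highest by construction, and 159 were also on another list. The percentages of the other types count genes listed for 1 type in the same way. Because each type is compared with all other cells, the comparisons have most of their cells in common, and the following counts are a description of where else each gene was listed. Prolifelation cell listed 160 of the 403 genes, 39.7% of the MMP_LMPP list, beside the 30.6% of all genes that it listed. They were 31.2% of its own list, beside the 24.0% of all genes that MMP_LMPP listed. Macrophage listed 101 genes, 25.1% of the MMP_LMPP list (beside 17.3%) and 34.7% of its own (beside 24.0%). Plasma cell listed 86, 21.3% of the MMP_LMPP list (beside 12.2%) and 42.2% of its own (beside 24.0%). Endothelium cell listed 77, 19.1% of the MMP_LMPP list (beside 23.6%) and 19.4% of its own (beside 24.0%). Of the genes in common with Plasma cell 60 had the larger share in MMP_LMPP and 25 in Plasma cell, whereas with Macrophage 35 were larger in MMP_LMPP and 64 in Macrophage. ILC2, the main target of the sort, listed 19, which is 4.71% of the MMP_LMPP list (beside 8.10%) and 14.0% of its own (beside 24.0%).

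**Figure D5:**
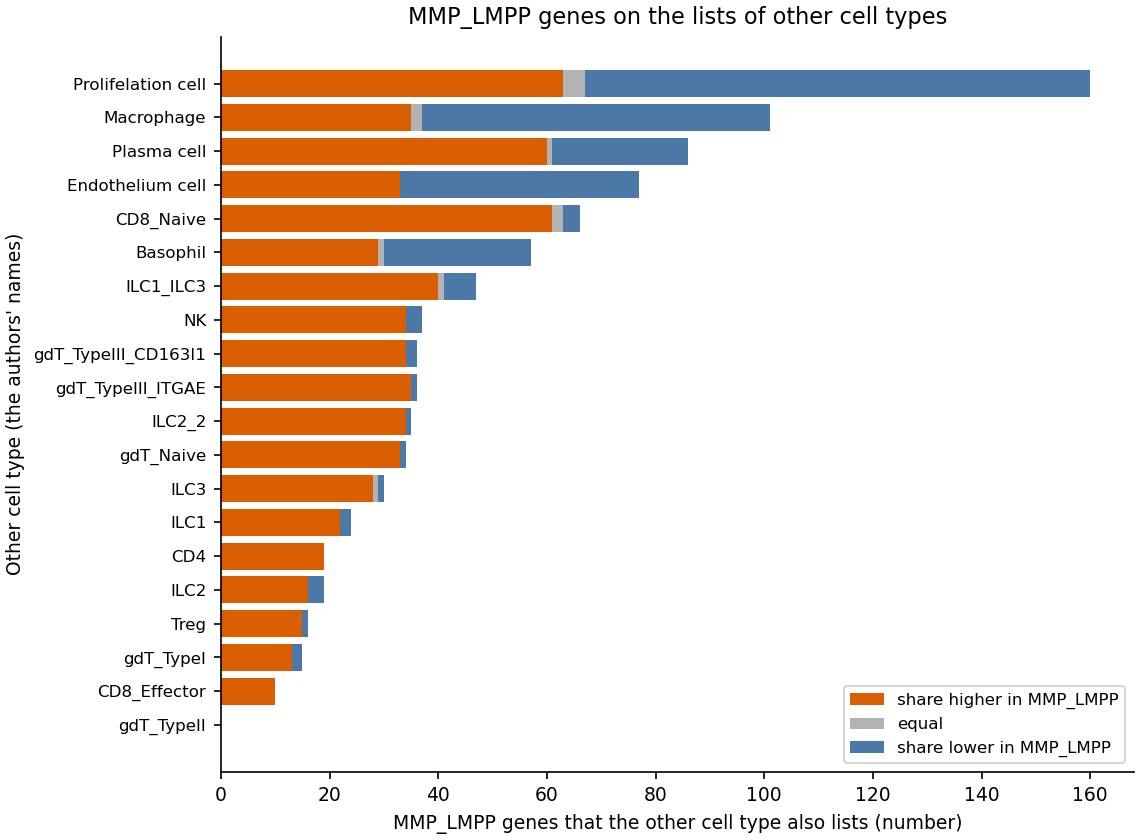
Bars give the number of the 403 MMP_LMPP genes that each other type also lists, split by whether the share of cells is higher in MMP_LMPP, equal, or lower. Prolifelation cell leads with 160 genes, most of them with a lower share in MMP_LMPP (93), whereas of the 66 genes in common with CD8_Naive 61 are higher in MMP_LMPP.

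The second table of the authors compares 10 subclusters of ILC2s with each other and holds 281 of the 403 genes, among 820 genes that are in both tables. Subcluster 4 listed 209 of the 281 (74.4%, beside 55.0% of the 820), subcluster 7 listed 67 (23.8%, beside 20.2%) and subcluster 1 listed 31 (11.0%, beside 14.0%). *Sox4* was listed for subcluster 7 alone, in 34% of its cells against 2.0% of the other ILC2s. *Kit* had entries for subclusters 0, 3, 5 and 9. Its share was highest in subcluster 9 (59.3%), and in subcluster 5 (11.2%) it was below that of the other ILC2s (26.6%). *Myb* was found in 49.2% of subcluster 4 against 5.1% and in 28% of subcluster 7 against 8.9%. Of the 7 B lineage genes of MMP_LMPP, *Cd79b* was listed for subcluster 1 (38.7% against 19.9%) and the others for no subcluster. *Cd34* was on no subcluster list either.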

How the data were processed

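Liver and lung cells sorted as ILC2s were sequenced by the authors with the 10x Genomics 3' chemistry, aligned to mm10 with Cell Ranger, log-normalized, clustered and named in Seurat; the tables hold neither sequencing depth nor numbers of cells. Per the study's methods, doublets were removed at the flow cytometry step and cells with few detected genes were left out; without the cells, remaining doublets were not tested for. The 2 deposited marker tables pool the 4 libraries. Used here were the deposited shares of cells (fractions with 3 decimals) inside and outside each cluster. The authors' log2 fold changes (0 negative values) and p-values, which hold their own comparisons, were neither used as results nor printed. The ratio of adjusted to raw p-values gave 2000 features tested in the cell type table, of which 321 were on no list. The tables held 0 further columns of values per sample.

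Differences between shares were computed in percentage points with Python 3.11.15, pandas 2.3.3 and numpy 2.4.6. Sizes were solved by least squares with gene effects over genes listed for at least 2 types. On simulated data over 1679 genes the error for MMP_LMPP was 0.0081 points. No test was run, since each group held 1 library and values were pooled. All 403 genes matched 1 gene of GENCODE vM21 by symbol. The members and the 20 gene lists were chosen with earlier results of these data known. Named were all MMP_LMPP genes of the progenitor, plasmacytoid dendritic cell, B lineage, ILC precursor, dendritic cell and ILC2 lists, genes from the 25 with the largest and the 5 with the lowest difference, from those listed for MMP_LMPP alone with at least 25 points, and up to 4 of each other list; a few others were named after their values were seen. Alternatives were stricter differences in share, other size fits and shares of the other list. A few genes are not reported here.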

Additional observations from a re-analysis of the deposited data

How the results depend on the processing

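No paired analysis was possible because libraries were pooled in both tables, with 1 library for each group, so that leaving out a library was not possible either. Of 31 alternative values, 27 stayed within 1.5 times the reported count or within the 95% interval of the size. Requiring a share at least 25 percentage points above the other cells left 267 of the 403 genes. As a percentage of the other list, Plasma cell (42.2%) and no longer Prolifelation cell shared most with MMP_LMPP. With a share at least 10 points above the other cells, 2 of 4 heat shock genes and 1 of 2 genes of chemokine receptors and adhesion remained, which follows from the stricter threshold. The counts of the other 18 gene lists stayed within those bounds. Those among them with a count of 0 could only stay at 0 under a stricter threshold, so they say nothing of stability. The 27 values include these lists. They also include the count of genes listed for MMP_LMPP alone, which rose from 44 to 66, at the limit of 1.5 times. Depth per cell is not in the tables, and at 0.387% of the cells every share of MMP_LMPP rests on few cells.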

Other observations

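A few further groups among the 403 genes were put together after their values were seen, and no test was made of them. Genes of ribosome biogenesis and the nucleolus, among them *Nolc1* (95.9% of MMP_LMPP cells against 60.1% of the others), *Ftsj3* (95.1% against 52.8%), *Noc2l* (94.3% against 52.1%) and *Dkc1* (86.2% against 57.0%), numbered 18. Their shares ranged from 69.9% to 100% inside MMP_LMPP and from 39.3% to 97.7% outside. Among the listing types, 15 of the 18 had their highest share in MMP_LMPP, beside 50.4% of all 403 genes. Of these 15, 5 were listed for MMP_LMPP alone and so are highest by construction. The serine, glycine and one-carbon enzymes *Shmt1*, *Shmt2*, *Phgdh* and *Gcsh* ranged from 73.2% to 92.7% inside and from 31.7% to 49.5% outside. Among the listing types, 3 of the 4 were highest in MMP_LMPP, but 2 of these were listed for it alone. The pyrimidine and purine synthesis genes *Ctps*, *Umps*, *Ppat* and *Impdh2* ranged from 74.8% to 90.2% inside and from 37.0% to 62.3% outside. Among the listing types, 2 of the 4 were highest in MMP_LMPP, 1 of them listed for it alone. The chaperonin subunits *Tcp1*, *Cct3*, *Cct5* and *Cct6a*, which fold tubulin and actin, ranged from 94.3% to 99.2% inside and from 68.7% to 80.6% outside. Among the listing types, all 4 were highest in MMP_LMPP, 1 of them listed for it alone.

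*Il1r2* was listed for MMP_LMPP alone in the cell type table, with 82.9% against 17.3%. In the ILC2 subcluster table, which does not cover MMP_LMPP as a type, *Il1r2* was listed for subclusters 2, 4, 7 and 9, with 49.4% of subcluster 9 against 18.4% of the other ILC2s.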
